A study of Arabidopsis thaliana with 6 samples.

Results

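The GSTU genes on chromosome 2 of Arabidopsis thaliana form a row of closely related genes that encode tau-class glutathione transferases. The 6 probe sets described here were chosen by their identifiers as those listed for GSTU7, GSTU6, GSTU5, GSTU4, GSTU3 and GSTU2, out of 22810 probe sets on the Affymetrix ATH1 array. They and the gene lists below were chosen with earlier results of these data known. Their counts beside all probe sets are therefore descriptive. Cells of a mixotrophic Arabidopsis culture, which both photosynthesise and take up organic carbon, received either 75 µM phytoprostane A1 (PPA1, 3 arrays) or, as controls, 0.5% methanol in water (3 arrays), in both cases for 4 h. Every array was hybridised with 1 sample. The labels speak of independent replicates but not of separate cultures or days, so the spread behind each p-value may be technical. The labels give neither the strain nor the age of the culture, nor whether methanol was present in the PPA1 samples. The question of the comparison is how transcript abundance responds to a reactive oxylipin.

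Glutathione transferases join the tripeptide glutathione to electrophilic compounds, and the conjugates are then moved into the vacuole. The tau class is found in plants, where its members are known for the detoxification of herbicides and for strong transcriptional responses to chemicals and stress. PPA1 is a product of non-enzymatic fatty acid oxidation and carries a cyclopentenone ring, an electrophilic structure that can react with glutathione. The genes of such a tandem row arose by duplication, so a probe set for one copy may also bind transcripts of another. The sequences of the array's probes were not used here.

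The gene order in RefSeq (TAIR10.1) runs GSTU7, GSTU6, GSTU5, GSTU4, GSTU3, GSTU2 and then GSTU1. The table that pairs probe sets with genes names 13513 probe sets of 1 gene but lists 0 of these 6, so the gene names rest on the list by which the probe sets were chosen. In particular, whether 266290_at, listed for GSTU2 (AT2G29480), detects that gene or the adjoining GSTU1 (AT2G29490) could not be checked here, and it is called by its identifier. RefSeq places other genes over GSTU7 (MTPB1 and AT2G08340), GSTU6 (AT2G29430) and GSTU2 (AT2G29485). The table gave no probe set for these, which were not analysed here.

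The deposited values are normalized intensities. Array medians ran from 41.9 to 51.0, and a signal of 16, taken here as the limit for dim values, was reached by 63.1% to 68.7% of the 22746 probe sets that were tested. The number of arrays, 3 per group, limits the precision. Among the array pairs within a condition, PPA1 replicates 2 and 3 were the most alike (r = 0.987 across probe sets of mean log2 signal at least 6), while PPA1 replicate 1 gave 0.833 and 0.839 with them, against 0.908 to 0.958 for control pairs. Of the 6 fixed markers of photosynthetic cells and the 3 of dividing cells, 0 had a named probe set, so the labelled culture type was not checked. The root hair gene EXPA7 and the guard cell gene FAMA had signals of 1.92 to 10.3 and 6.84 to 16.1 after PPA1, against 4.60 to 11.8 and 4.35 to 10.9 in controls.

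Of the 6 probe sets of the row, 4 had a positive log2 change after PPA1 and 2 a negative one, and 2 of the rises passed the adjusted test. Two-sided limma tests with Benjamini-Hochberg adjustment over all 22746 probe sets called GSTU7 and 266290_at higher, where 0.809% of all tested probe sets were called higher. They called 0 of the 6 lower, where 0.994% of all tested were called lower. At an unadjusted p under 0.05, 4 of the 6 were higher and 1 was lower, where 8.26% and 14.8% of all tested probe sets were. All PPA1 arrays lay above all control arrays for 4 probe sets (GSTU7, GSTU5, GSTU4 and 266290_at) and below them for 1 (GSTU6), where 10.8% and 20.1% of all tested did. The median log2 change of the 6 was 1.28, beside -0.21 over all tested probe sets. In bulk RNA, fewer cells of a type and less RNA per cell cannot be told apart.

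GSTU7 (266296_at) rose after PPA1. Its signal was 2193, 1449 and 1587 in PPA1 replicates 1 to 3, against 305.1, 367.0 and 317.9 in control replicates 1 to 3. The lowest PPA1 array thus lay far above the highest control, and both groups were well above the dim limit. The mean log2 signal was 10.74 ± 0.31 after PPA1 and 8.36 ± 0.14 in controls (SD, n = 3 each). The log2 change was 2.38 (standard error 0.24, limma adjusted p = 0.0241), a 5.21-fold rise with a 95% interval of 3.45 to 7.87. With replicate number as a block, the log2 change kept its size and did not pass (limma adjusted p = 0.135, where all settings gave 0.000593 to 0.135). A larger log2 change was found for 2.03% of all tested probe sets.

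The probe set 266290_at, listed for GSTU2, rose after PPA1, with control signals near the low end of the array. It read 621.0, 173.4 and 166.2 in PPA1 replicates 1 to 3, against 1.62, 9.35 and 5.29 in control replicates 1 to 3. Every control was under the dim limit of 16, and every PPA1 array was well above it. The mean log2 signal was 8.03 ± 1.08 after PPA1 and 2.11 ± 1.29 in controls (SD, n = 3 each). The log2 change was 5.92 (standard error 0.83, limma adjusted p = 0.0378). As a fold it was 60.6 with a 95% interval of 14.7 to 250, but its size depends on control values close to background, so it was not ranked against other probe sets. With replicate number as a block it did not pass (limma adjusted p = 0.151). With 32 added to every signal before taking log2, the change was 3.001 (limma adjusted p = 0.0222, where all settings gave 0.00286 to 0.151).

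GSTU4 (266267_at) and GSTU5 (266299_at) had higher signals in every PPA1 array than in any control, but neither passed the adjusted test. GSTU4 read 762.1, 287.6 and 324.7 in PPA1 replicates 1 to 3, against 185.9, 97.4 and 96.1 in control replicates 1 to 3. Its log2 change was 1.78 (standard error 0.48, limma adjusted p = 0.114), or 3.45-fold with a 95% interval of 1.504 to 7.89. In both groups replicate 1 was the highest array. With replicate 1 set against the other replicates as a term of the model, the standard error was 0.19 and the limma adjusted p 0.0434, where all settings gave 0.00713 to 0.307.

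GSTU5, earlier named AT103-1A, was bright in controls too. It read 1056, 689.1 and 892.9 in PPA1 replicates 1 to 3, against 489.5, 548.4 and 492.0 in control replicates 1 to 3. The log2 change was 0.77 (standard error 0.23, limma adjusted p = 0.140), or 1.70-fold with a 95% interval of 1.14 to 2.54. This was the smallest difference among the members whose groups did not overlap. It passed with 32 added before log2 (limma adjusted p = 0.0482, where all settings gave 0.0426 to 0.343).

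GSTU6 (266271_at) was the only member with every PPA1 array below every control. It read 502.2, 91.6 and 77.3 in PPA1 replicates 1 to 3, against 1035, 927.6 and 705.2 in control replicates 1 to 3. PPA1 replicate 1 stood between the other PPA1 arrays and the controls, at 5.94 times the mean of PPA1 replicates 2 and 3. The mean log2 signal was 7.25 ± 1.49 after PPA1 and 9.78 ± 0.29 in controls (SD, n = 3 each). The log2 change of -2.52 had a standard error of 0.75 and did not pass (limma adjusted p = 0.133). The interval of 1.59-fold to 20.8-fold lower shows how wide the spread among PPA1 arrays left it. Without PPA1 replicate 1 the log2 change was -3.38 and passed (limma adjusted p = 0.00850, where all settings gave 0.000408 to 0.324). GSTU6 lies between GSTU7 and GSTU5 in gene order, both of which had higher signals after PPA1.

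GSTU3 (266270_at) was dim. It read 24.0, 5.53 and 4.77 in PPA1 replicates 1 to 3, against 15.2, 9.89 and 11.4 in control replicates 1 to 3. The groups overlapped, with the highest value and the lowest values both among PPA1 arrays. The log2 change was -0.48 (standard error 0.66, limma adjusted p = 0.693), with a 95% interval of -2.11 to 1.15. Without PPA1 replicate 1 it was -1.22 (limma adjusted p = 0.0488, where all settings gave 0.0488 to 0.979), from signals that are all under 16. A difference was therefore not detectable with these arrays when all 6 were used.

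**Figure D1:**
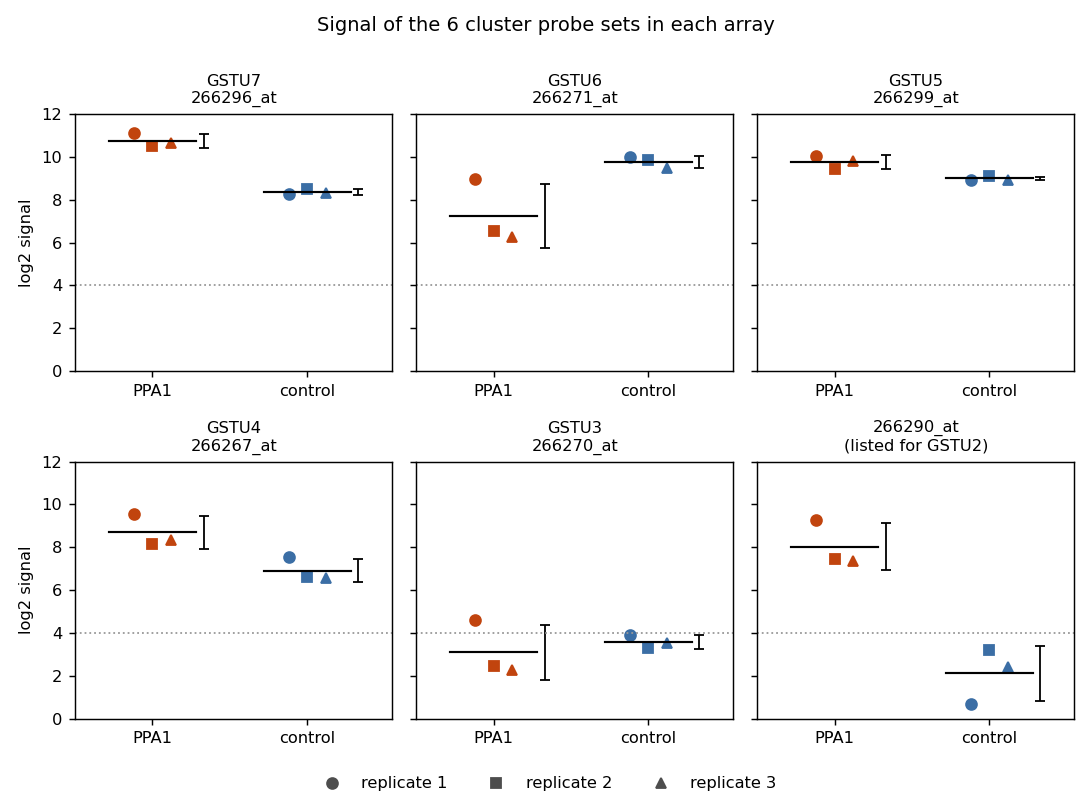
Log2 signal (vertical axis) of each cluster probe set in the PPA1 arrays (left, orange) and control arrays (right, blue). Symbols mark replicates 1 to 3, horizontal bars the group means, error bars the SD (n = 3 each), and the dotted line a log2 signal of 4. GSTU7 and 266290_at separate most clearly, GSTU6 lies lower after PPA1, and PPA1 replicate 1 (circle) is the highest PPA1 array in all 6 panels.

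PPA1 replicate 1 gave the highest signal of the 3 PPA1 arrays for 6 of the 6 members, where 46.8% of all tested probe sets did so. Its signal over the mean of the other PPA1 arrays was 1.34 for GSTU5, 1.45 for GSTU7, 2.49 for GSTU4, 3.66 for 266290_at, 4.65 for GSTU3 and 5.94 for GSTU6. The excess was smallest for GSTU5 and GSTU7 and largest for GSTU6. Within replicates 2 and 3 alone, the log2 changes were 2.15 for GSTU7, 4.59 for 266290_at, 1.66 for GSTU4 and -3.26 for GSTU6, and these 4 passed (limma, adjusted p between 0.0342 and 0.0427, and between 0.000408 and 0.324 over all settings), where 3.38% of all tested probe sets were called higher and 2.81% lower. GSTU5 and GSTU3 changed by 0.59 and -1.05 and did not pass there (limma adjusted p = 0.1998 and 0.0786, where all settings gave 0.0426 to 0.343 and 0.0488 to 0.979). The part of this array in the changes was not tested beyond these values.

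The calls depended on which arrays were used. When any single array other than PPA1 replicate 1 was left out, limma called 0 probe sets on the whole array and hence 0 members (3419 to 4296 at an unadjusted p under 0.05). GSTU7 then had adjusted p from 0.0768 to 0.120, and 266290_at from 0.0872 to 0.120, with log2 changes of 2.33 to 2.50 and 5.22 to 6.48. Without PPA1 replicate 1 both were called (limma adjusted p = 0.00935 and 0.0252), where 6.32% of all tested probe sets were called higher and 7.51% lower. With replicate number as a block, limma called 0 members and 0 of all probe sets (1768 higher and 3032 lower at an unadjusted p under 0.05). With the block and limma's robust variance trend, GSTU7, 266290_at and GSTU4 were called higher and GSTU6 lower (limma adjusted p = 0.00522, 0.0190, 0.00713 and 0.0335, where all settings gave 0.000408 to 0.324), and 3.66% of all tested probe sets were called higher and 4.82% lower. Over all 24 settings, GSTU7 was called in 18, 266290_at in 17, GSTU4 in 8, GSTU6 in 6 and GSTU5 in 2, while GSTU3 was called in 1 of the 16 that kept it. No member changed direction in any of these settings. All of them reuse the same arrays, and some were chosen after the data were seen. In those with a limit on mean log2 signal (at least 4), 266290_at was kept only through its PPA1 arrays. The tallies are therefore not independent support for a call.

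**Figure D2:**
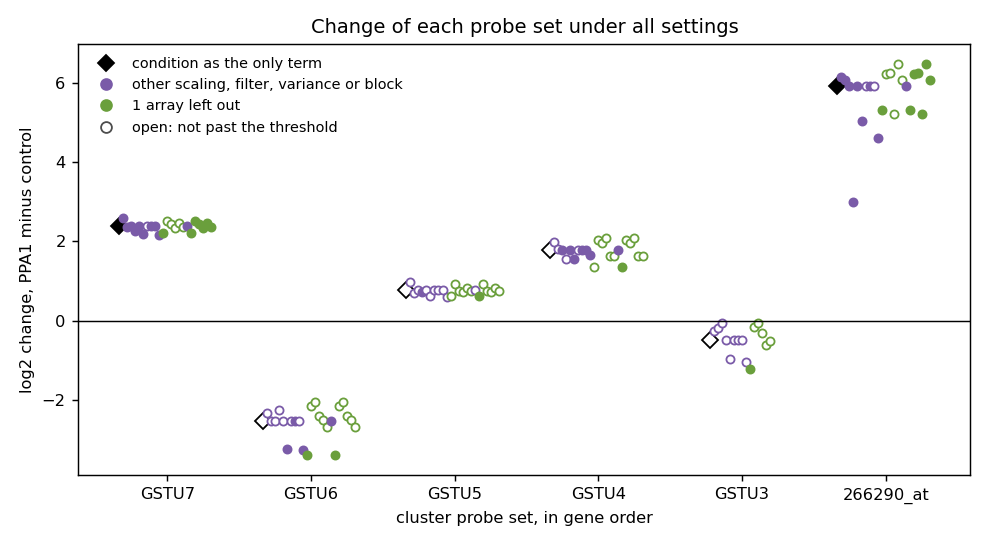
Log2 change, PPA1 minus control (vertical axis), of each cluster probe set under the 24 settings (16 for GSTU3). Diamonds show the fit with condition as the only term, circles the alternatives, green ones those without 1 array, and open symbols an adjusted p not under 0.05. GSTU7 stays between 2.15 and 2.60, while 266290_at stands at 3.001 when 32 is added before log2.

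Centring each array on its own median moved all changes up together. It brought the median change over all tested probe sets to 0.01, against -0.21 as deposited. On that scale the log2 changes were 2.60 for GSTU7, 6.14 for 266290_at, 1.998 for GSTU4, 0.98 for GSTU5, -2.31 for GSTU6 and -0.27 for GSTU3. The same 2 probe sets passed (limma adjusted p = 0.0206 and 0.0364), where 239 of the 22746 tested were called higher and 154 lower. With the changes raised in this way, GSTU4 and GSTU5 had limma adjusted p of 0.0969 and 0.0958, which did not pass. Quantile normalization, by contrast, moved the members by different amounts and directions, to 2.35 for GSTU7, 6.07 for 266290_at, 1.80 for GSTU4, 0.71 for GSTU5, -2.51 for GSTU6 and -0.18 for GSTU3. Its calls were those 2 as well (limma adjusted p = 0.0250 and 0.0321), where 205 of all tested probe sets were called higher and 182 lower.

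Genes on both sides of the row were compared with it by position. Of the 10 nearest genes with a named probe set, 5 on each side, 1 was called higher and 1 lower. Among all tested probe sets, 0.809% were called higher and 0.994% lower. The median log2 change of the 10 was -0.51, beside -0.21 over all tested probe sets. The gene next to GSTU1, AT2G29500, rose after PPA1, and its control signals were well above the dim limit. It read 5012, 8128 and 7925 in PPA1 replicates 1 to 3, against 127.6, 142.3 and 77.5 in control replicates 1 to 3. Its log2 change was 5.94 (standard error 0.34, limma adjusted p = 0.0185), a 61.2-fold rise. It did not pass with replicate number as a block (limma adjusted p = 0.135, where all settings gave 0.000141 to 0.135). In contrast to the 6 members, PPA1 replicate 1 was its lowest PPA1 array.

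Beyond it, AT2G29510 had lower signals in every PPA1 array than in any control, with a log2 change of -1.72 (limma adjusted p = 0.134). TUB7, which encodes a beta-tubulin of the cytoskeleton, fell by 1.56 on the log2 scale (limma adjusted p = 0.0378, but 0.142 with replicate number as a block, where all settings gave 0.00178 to 0.168). The cytosolic enolase gene ENOC and AT2G29590 had log2 changes of 0.19 and 0.82 and overlapping groups. On the GSTU7 side, the nearest named genes were AT2G29370, AT2G29360, AT2G29340, the tropinone reductase gene TRI and AT2G29320. None of these 5 passed, and their log2 changes ran from -1.53 (TRI) to -0.14 (AT2G29370). The 4 genes nearest to GSTU7 on that side were not analysed here.

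**Figure D3:**
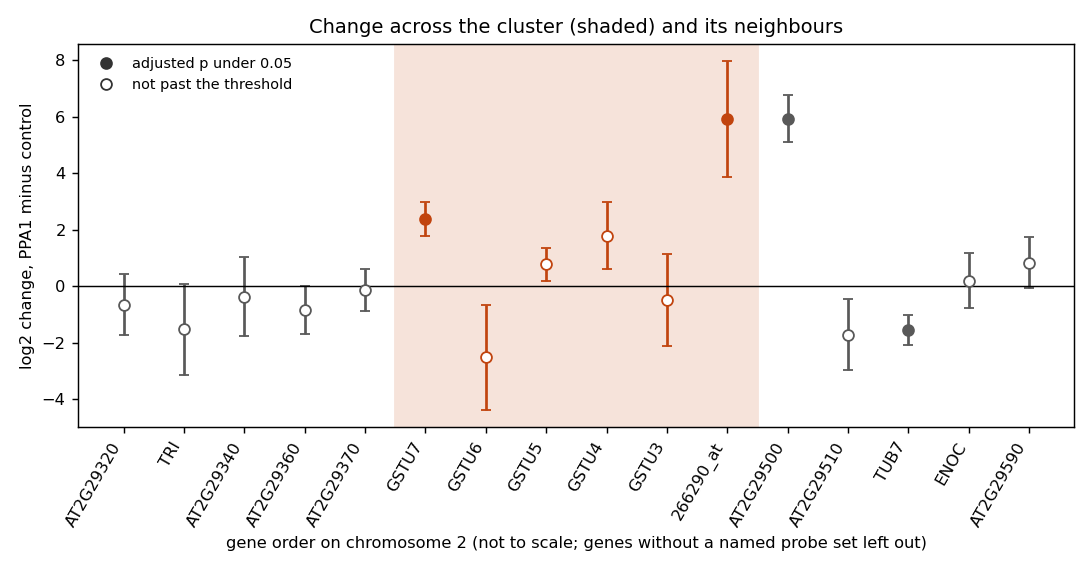
Log2 change, PPA1 minus control, with 95% intervals (vertical axis), for the cluster (shaded) and the 5 nearest genes with a named probe set on each side, in gene order on chromosome 2 (horizontal axis, not to scale). Filled points have a limma adjusted p under 0.05, and 266290_at stands at the place of GSTU2, for which it is listed. Positive and negative changes stand side by side within the row, and AT2G29500 beside it changed by 5.94.

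Elsewhere in the genome, 11 of the other 21 tau genes had a named probe set. Of these, 1 was called higher and 0 lower, where 0.809% and 0.994% of all tested probe sets were. Their median log2 change was 1.42, beside 1.28 for the 6 of the chromosome 2 row and -0.21 over all tested probe sets. The 1.42 is the value of GSTU21, whose groups overlapped and whose signals of 1.66 to 12.8 were under the dim limit in every array. It is therefore uncertain as a measure of the other tau genes. At an unadjusted p under 0.05, 3 of the 11 were higher and 0 lower, where 8.26% and 14.8% of all tested were. The call was GSTU22, which read 64.6, 98.1 and 150.0 in PPA1 replicates 1 to 3, against 19.1, 14.8 and 21.1 in control replicates 1 to 3. Its log2 change of 2.44 had a standard error of 0.36 (limma adjusted p = 0.0430). It did not pass with replicate number as a block (limma adjusted p = 0.135, where all settings gave 0.00106 to 0.178), nor with replicate 1 set against the others as a term, where 266290_at did not pass either (limma adjusted p = 0.0622).

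GSTU25, singled out after its values were seen, had the largest change of these 11. It read 805.9, 513.2 and 408.3 in PPA1 replicates 1 to 3, against 41.0, 101.8 and 19.0 in control replicates 1 to 3, with a log2 change of 3.69 (limma adjusted p = 0.0578). The lowest change in this list was -0.31 (GSTU18), so the change of GSTU6 lies below the range of these 11. Only 3 of the 11 reached a mean log2 signal of 6 in their brighter group, and 8 had overlapping groups, where 69.0% of all tested probe sets did.

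**Figure D4:**
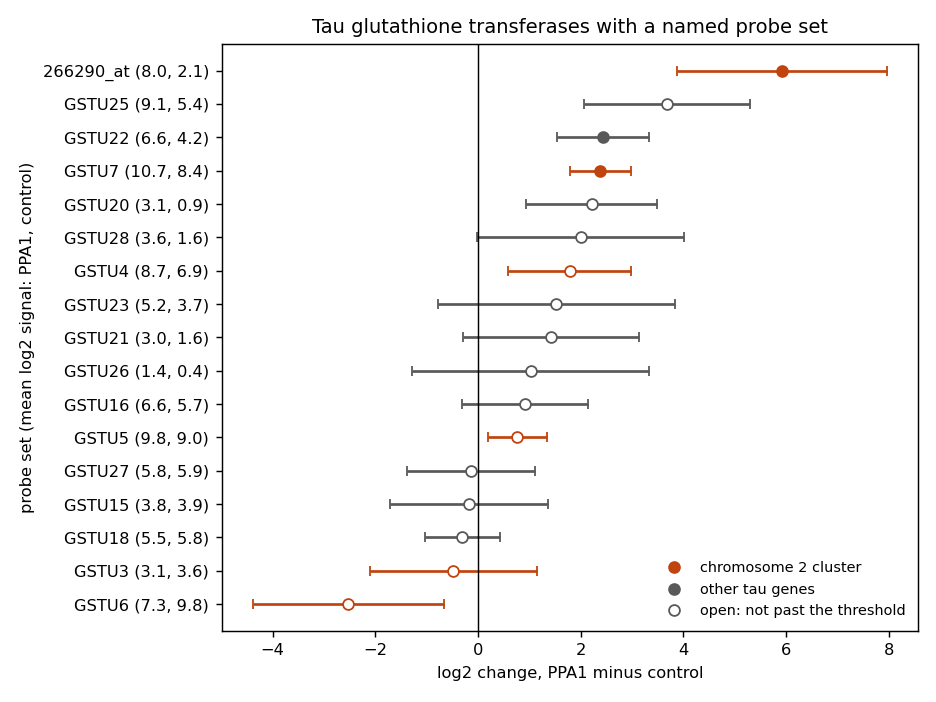
Log2 change, PPA1 minus control (horizontal axis), with 95% intervals, for the chromosome 2 cluster (orange) and 11 other tau genes with a named probe set (grey), ordered by the change. Mean log2 signals after PPA1 and in controls stand in brackets, and filled points have a limma adjusted p under 0.05. GSTU6 stands at -2.52, and 266290_at at 5.92 with controls under the dim limit.

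Other genes of glutathione use were covered in small part. Of 13 phi-class genes 2 had a named probe set (GSTF4 and GSTF13). Both had a mean log2 signal under 6 in each group and overlapping groups, and 0 were called. Among all tested probe sets 69.0% had overlapping groups, 0.809% were called higher and 0.994% lower. In lists this short, the absence of calls, here and below, is therefore no result about these genes. Of 9 genes of other glutathione transferase classes, 1 had a named probe set. This was GSTL3, a lambda-class member, which was bright with a log2 change of -0.09 (limma adjusted p = 0.835). Of 4 genes for glutathione synthesis and reduction, 2 had one, and neither was called. GR1, a glutathione reductase that regenerates reduced glutathione, read 1677, 1005 and 926.8 in PPA1 replicates 1 to 3, against 911.1, 679.9 and 752.8 in control replicates 1 to 3. Its log2 change was 0.58 (limma adjusted p = 0.303), and GR2 changed by 0.24 (0.518). The 9 genes for conjugate transport and glutathione breakdown and the 7 TGA and SCL14 regulators had no named probe set and were not analysed here.

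The mean pattern of the row was taken as the mean of the members' centred log2 signals over the 6 arrays, in which 266290_at weighs most through its wide spread. Against the mean of the other 5 members, r was 0.91 for GSTU5, 0.88 for GSTU4, 0.80 for GSTU7, 0.49 for 266290_at, 0.15 for GSTU3 and -0.55 for GSTU6. Except in the value for 266290_at itself, that mean still contains 266290_at and leans on it. Among 5351 named probe sets of mean log2 signal at least 6, those with the highest Pearson correlation to the mean of all 6 members over the 6 arrays were for AT1G17860 (r = 0.994), AT4G16190 (0.983), AT3G22240 (0.976) and SDRB, which has 2 probe sets (0.976 and 0.970). The arrays fall into 2 conditions, so these values describe likeness of pattern and were not tested. AT1G17860 read 5929, 1633 and 1918 in PPA1 replicates 1 to 3, against 900.6, 878.4 and 869.4 in control replicates 1 to 3. All 5 probe sets had their highest signal in PPA1 replicate 1 and PPA1 arrays above all controls. Among all tested probe sets, 46.8% had PPA1 replicate 1 as the highest PPA1 array, and 10.8% had PPA1 arrays above all controls. The 5 were chosen for likeness to a pattern with these traits, so sharing them is no separate result. Of the 5, 0 passed the adjusted test (limma adjusted p from 0.155 to 0.395).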

How the data were processed

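The authors deposited 1 normalized intensity per probe set and array, on a linear scale. These intensities were made with GCRMA (version not stated), per the submitters' processing notes. Background subtraction of this kind makes folds of dim probe sets uncertain. Log2 of these intensities, with no added constant, entered limma 3.58.1 (lmFit, eBayes; R 4.3.3) with the condition as sole term. The 64 manufacturer controls were left out. Two-sided p-values were adjusted by Benjamini-Hochberg over 22746 probe sets, with a threshold of 0.05. The fit was also run on simulated data with known changes in probe sets of mean log2 signal at least 6. There it missed all of the smallest changes and a part of the larger ones. A probe set that was not called may therefore still have changed. Counts and figures came from Python 3.11.15 (numpy 2.4.6, pandas 2.3.3, matplotlib 3.10.9).

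Genes were named through GEO's platform annotation, of which 503 probe sets with several genes were left out, and RefSeq; 13436 tested probe sets matched 1 gene. Named were all members, the 5 nearest named genes on each side, up to 4 called genes per list whose brighter group averaged at least 6 on the log2 scale (otherwise the largest change), and the 5 most alike probe sets. Members and lists were chosen with earlier results of these data known. Alternatives covered scaling, a limit on dim probe sets, an added constant, variance models, array weights, replicate blocks and leaving out each array.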

Additional observations from a re-analysis of the deposited data

How the results depend on the processing

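Settings that join the limit on dim probe sets (mean log2 signal at least 4) to a block or to leaving out an array were chosen after seeing the data. That limit dropped GSTU3, and 266290_at passed it only through its PPA1 arrays. Calls are given as higher and lower.

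For the 6 members, against 2 and 0, the replicate block gave 0 and 0, with limma adjusted p of 0.135 for GSTU7 and 0.151 for 266290_at. Array weights, the replicate block with a robust variance trend, replicates 2 and 3 alone, and the replicate block under the dim limit each gave 3 and 1. In the same order, these settings called 2130 and 3324, 833 and 1096, 769 and 640, and 610 and 947 of all probe sets. The last of them tested 14850 probe sets and the others 22746. Counts over all probe sets for the remaining settings follow below. Without 1 array the counts were 0 to 2 and 0 to 2, and under the dim limit 2 to 4 and 0 to 1. The listed genes outside the row, against 1 and 0, had 2 called higher under the dim limit, 32 added before log2, the robust variance trend, both joined replicate blocks, or replicates 2 and 3 alone. They had 4 with array weights, 0 with the replicate block or with replicate 1 as a term, and 0 to 3 (1 to 3 under the dim limit) without 1 array.

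Over all probe sets, against 184 and 226, limma called 801 and 1305 under the dim limit, 748 and 1349 with 32 added, 791 and 1171 with the robust variance trend and 2130 and 3324 with array weights. The replicate block gave 0 and 0, but 1768 and 3032 when p under 0.05 was taken unadjusted. Joined to the variance trend it gave 833 and 1096, and 610 and 947 under the dim limit. Replicates 2 and 3 alone gave 769 and 640. Without 1 array the counts were 0 to 1437 and 0 to 1708, and under the dim limit 110 to 2220 and 93 to 3415 (295 and 483 without control replicate 1, 300 and 468 without control replicate 3). As deposited 44.9% of calls were rises, and after median centring 60.8%. Why the counts differ was not tested. As a check of pairing, each array's departure from its condition's mean was correlated with that of the array of equal number in the other condition, giving r of 0.06, 0.03 and 0.02 for numbers 1 to 3 over all tested probe sets, and 0.16, 0.24 and 0.15 over the 10135 whose mean log2 signal reached 6. In both sets every array had its highest r with the equal number, a hint from the data and not the design. The labels give the numbers no shared batch or day, and r was above 0.1 in the brighter set but not over all probe sets. Whether the arrays were paired could not be told from these values. The fit without the block was kept as designed, and the blocked adjusted p stands beside each called gene.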
